A study of Homo sapiens with 8 samples.

Results

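The genes described here build, attach and trim the N-glycan, the branched sugar chain that most secreted and surface proteins carry on asparagine. They were taken from a list of 50 human genes for dolichol and sugar donor supply, assembly of the lipid-linked precursor, transfer to protein, trimming in the endoplasmic reticulum (ER) and branching in the Golgi. A gene was measured when a probe set of the array was paired with its symbol alone, and the brightest such probe set stood for it. This held for 43 of the 50 genes, out of 17958 genes measured in this way. The probe sets of ALG1, ALG10, ALG11 and RPN2 are shared with other symbols, and SRD5A3, PMM2 and OST4 have none listed, so these 7 genes have no value.

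Expression was measured on 8 Affymetrix whole-transcript arrays of 2 human lymphoma lines grown in the same serum-supplemented RPMI medium. The groups were KMH2 cells given glucosamine for 24 h (3 arrays), Ramos cells (2 arrays) and KMH2 control cells (3 arrays). KMH2 comes from Hodgkin lymphoma and Ramos from Burkitt lymphoma. No source used here gives the glucosamine dose. The titles call both Ramos arrays control, whereas the series' design text puts 1 of them after glucosamine, and Ramos is therefore treated as a line only, with both arrays always given. Most markers of the Hodgkin and B-cell lists told the lines apart. TNFRSF8, the Hodgkin marker CD30, had 7.95 to 8.08 in KMH2 glucosamine, 6.10 and 5.63 in Ramos and 8.65 to 8.85 in KMH2 control, and the B-cell marker MS4A1 had 3.70 to 3.87 in KMH2 glucosamine, 11.04 and 10.83 in Ramos and 3.55 to 3.82 in KMH2 control. Of the further Hodgkin markers, FSCN1 (-4.11, adjusted p = 2.59e-08) and CCL17 (-0.73, 4.64e-05) were lower in Ramos than in KMH2 control. IL13 did not tell the lines apart (0.18, adjusted p = 0.25). All 4 measured B-cell markers were higher in Ramos, and KMH2 lacked a clear MS4A1 signal. With glucosamine TNFRSF8 (-0.73, adjusted p = 0.000232), CCL17 (-0.47, 0.000708), FSCN1 (-0.28, 0.0224) and the B-cell marker PAX5 (-0.37, 0.0105) fell. IL13, MS4A1, CD79A and CD79B did not pass with glucosamine. Of 11 measured markers of other cell types 0 rose and 1 fell with glucosamine, namely CD14 (-1.08, adjusted p = 0.00102). Their summed log2 signal was 61.7 to 62 in KMH2 glucosamine, 58 to 58.1 in Ramos and 63.2 to 63.7 in KMH2 control, with CD3D at 8.10 to 8.27 and ITGAM at 7.27 to 7.53 in KMH2 control. Their part in the results below was not tested.

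N-glycans start on dolichol, a long lipid of the ER membrane. Enzymes on the cytosolic face add GlcNAc and mannose from nucleotide sugars, the lipid-linked chain flips into the lumen, further mannoses and glucoses are added from dolichol-linked donors, and the oligosaccharyltransferase moves the whole chain to protein. Glucosidases and mannosidases then trim it while chaperones read the remaining glucose as a folding signal, and Golgi enzymes trim it further and add GlcNAc branches. Glucosamine enters the hexosamine pathway, whose product UDP-GlcNAc is the donor both for the start of the precursor and for the branches.

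All levels are log2 signals. A difference is the mean of the glucosamine or Ramos arrays less that of the KMH2 control arrays on this scale. Levels of different genes are not compared, because probe sets differ in brightness. In cell extracts, fewer cells expressing a gene and less RNA per cell cannot be told apart. After 24 h of glucosamine 8 of the 43 genes rose and 12 fell, while 23 did not pass the test (limma without pairing, adjusted p under 0.05). In all, 46.5% of these genes passed, 18.6% upward and 27.9% downward, beside 25.8% of all 19181 probe sets tested, 11.9% upward and 13.9% downward. Among the 13861 probe sets with a mean signal of at least 5, to which 42 of the 43 belong, 34.2% passed. The changes were modest, with a median size of 0.35 among the 20 genes that passed, beside 0.37 among all probe sets that passed. The median difference of all 43 was 0.06, beside 0.01 for all probe sets. In 26 of the 43 (60.5%) the arrays of the 2 groups did not overlap, beside 40.9% of all probe sets. Those 26 included all 20 genes that passed, and also DPM2, DPM3, DAD1 and DDOST above control and DPM1 and ALG13 below it. The series' design text has each KMH2 replica taken both ahead of and following treatment, whereas the main fit did not pair the arrays. Pairing by number in a replicate block gave 11 genes higher and 13 lower, beside 2711 and 3037 of all probe sets. Left unpaired and without any 1 of the control arrays, 5 genes rose, beside 1571 to 1870 of all probe sets. When the spread was taken from all 8 arrays, 4 rose and 6 fell, beside 998 and 1179 of all probe sets. These 10 (ALG14, OSTC, STT3A and MAN2A2 upward, DOLK, ALG5, ALG6, ALG8, GANAB and MAN1B1 downward) were called under every alternative run. MPI, GMPPB, ALG12, STT3B, RPN1, MAGT1, UGGT1, MAN1A1, MAN2A1 and MGAT2 were not called with that spread, at adjusted p of 0.057 to 0.517.

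Among the 43 genes, the lumenal transferases with ALG5, the ER trimming and folding genes and the sugar and dolichol enzymes that passed all fell. Most subunits of the oligosaccharyltransferase that passed rose, as did the mannosidases of the Golgi that passed. Outside the 43, the ER genes EDEM1, EDEM2 and EDEM3 rose. Whether the steps differ from one another was not tested.

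**Figure D1:**
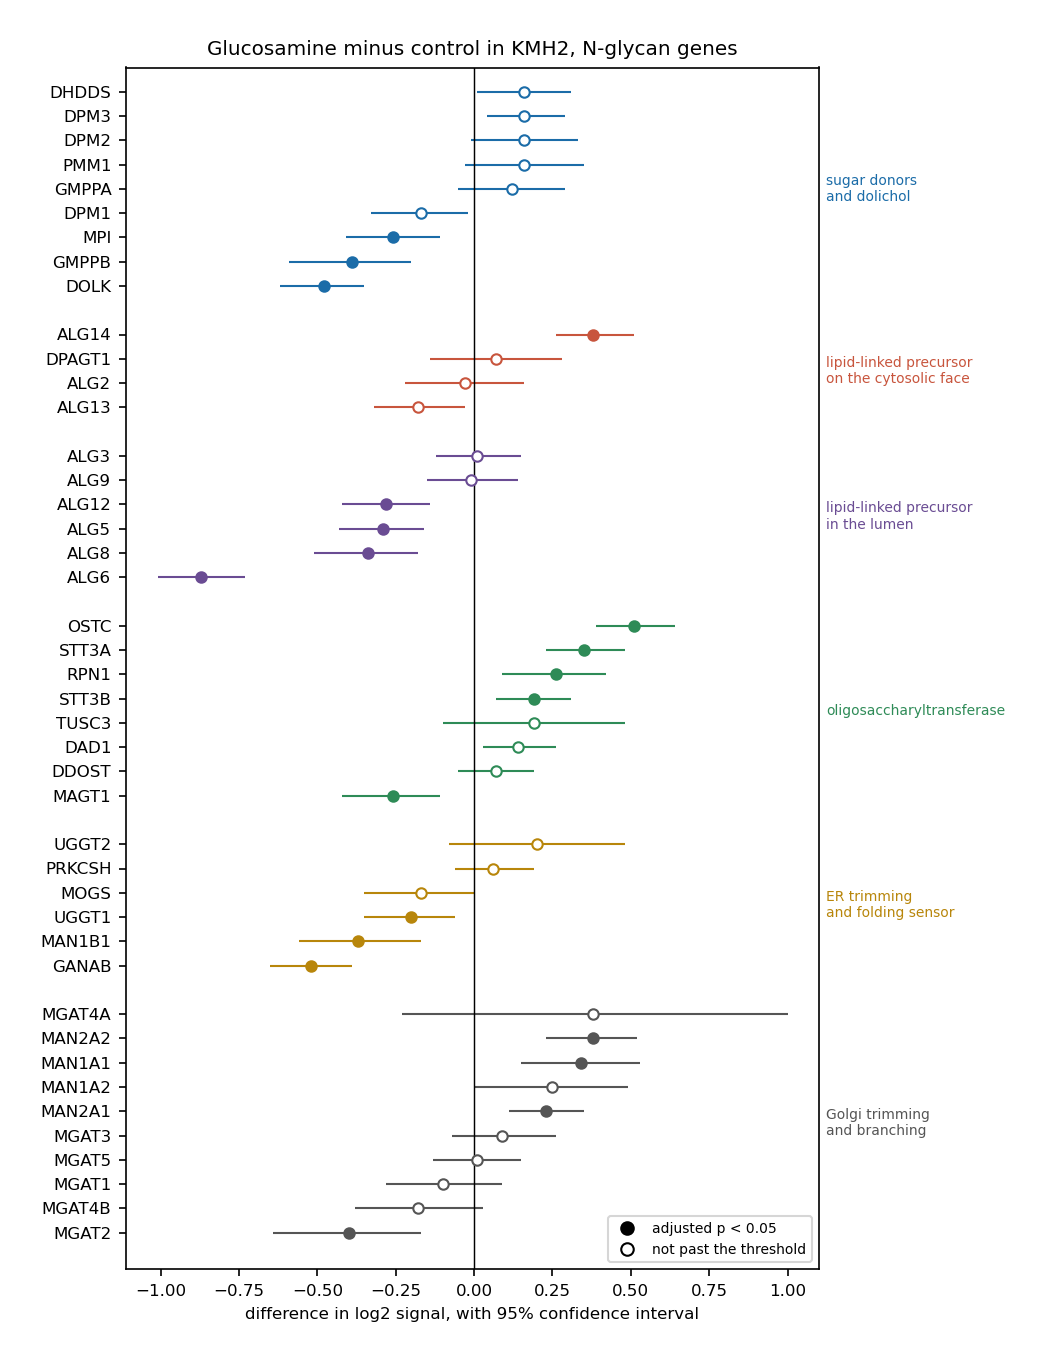
Difference in log2 signal between glucosamine and control in KMH2 for the 43 measured genes, in 6 groups by role, with the 95% confidence interval of the limma fit of 3 against 3 arrays. Filled points passed the test. ALG5 is drawn with the lumenal steps. ALG6 lies farthest to the left at -0.87 and OSTC farthest to the right at 0.51.

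Among the 9 measured genes of dolichol and sugar donor supply 3 fell, 0 rose and 6 did not pass. Thus 33.3% passed, beside 25.8% of all probe sets and 34.2% of those with a mean of at least 5. DOLK, the kinase that makes dolichol phosphate, had 6.06, 6.08 and 6.20 in the glucosamine arrays, against 6.56, 6.60 and 6.63 in the control arrays. The groups were well apart, and DOLK fell by 0.48 ± 0.06 (SE, adjusted p = 0.000644). GMPPB, the catalytic subunit that makes GDP-mannose, had 6.82, 6.58 and 6.86 after glucosamine and 7.13, 7.24 and 7.08 in control. Every treated array was again below every control array, and GMPPB fell by 0.39 ± 0.08 (SE, adjusted p = 0.0102). MPI, which makes mannose 6-phosphate from the glycolytic intermediate fructose 6-phosphate, fell by 0.26 (adjusted p = 0.0219). Leaving out control replicate 2 (0.0805) or 3 (0.0665) ended this call.

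The genes around these enzymes did not pass. PMM1, a phosphomannomutase, the kind of enzyme that follows MPI, differed by 0.16 (adjusted p = 0.196), and GMPPA, the partner of GMPPB, by 0.12 (0.311). The synthase of dolichol-phosphate mannose has 3 subunits. Its catalytic subunit DPM1 differed by -0.17 (adjusted p = 0.104), whereas its small membrane subunits DPM2 and DPM3 both differed by 0.16 (0.173 and 0.0645). DPM1 passed once glucosamine replicate 2 was left out (0.0364), and DPM3 passed with an intensity trend (0.0426), with dim probe sets left out (0.0499) and after quantile normalization (0.044). DHDDS, a subunit of the enzyme that makes the dolichol chain, differed by 0.16 (0.123).

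DOLK starts back to back with NUP188, a nuclear pore gene on the opposite strand, with only 95 bases between the 2 start sites. NUP188 had 8.96, 9.09 and 9.09 after glucosamine and 9.48, 9.55 and 9.49 in control. It fell by 0.46 (adjusted p = 0.00089), so both genes of this pair fell. The stretch between the starts is shown because it is shared by these 2 genes. It lies at chr9:128947604-128947698 of GRCh38.p14 (sequence from RefSeq), is read on the minus strand up to the base before the DOLK start, and has the 2 E-boxes (CACGTG) in capitals.
DOLK to NUP188: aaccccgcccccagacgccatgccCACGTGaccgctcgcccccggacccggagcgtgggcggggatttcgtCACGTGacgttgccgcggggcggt

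On the cytosolic face 4 genes were measured, of which 1 rose, 0 fell and 3 did not pass. The share that passed was 25%, beside 25.8% of all probe sets and 34.2% of those with a mean of at least 5. ALG14, the membrane anchor of the enzyme that adds the second GlcNAc, had 8.06, 8.03 and 8.01 after glucosamine, against 7.58, 7.67 and 7.70 in control. It rose by 0.38 ± 0.05 (SE, adjusted p = 0.00142). ALG13, its catalytic partner, had 8.78, 8.63 and 8.59 after glucosamine and 8.89, 8.83 and 8.80 in control. ALG13 thus lay below control on every array but did not pass (-0.18, adjusted p = 0.0816). Pairing by a replicate block brought ALG13 past the threshold (0.0468), as did leaving out glucosamine replicate 1 (0.0187) or the replicate 1 arrays of both groups (0.0337). A dimmer probe set of ALG13 overlapped between the groups (0.10, adjusted p = 0.641). DPAGT1, which adds the first GlcNAc and is the target of tunicamycin, had 10.04, 10.33 and 10.30 after glucosamine and 10.05, 10.24 and 10.17 in control, and did not pass. The 95% confidence interval of its difference ran from -0.14 to 0.28. ALG2, which adds mannoses after ALG1, a gene without a value here, differed by -0.03 (interval -0.22 to 0.16).

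Of the 6 measured genes grouped with the lumenal steps 4 fell and 0 rose. That is 66.7%, beside 25.8% of all probe sets that passed and 34.2% of those with a mean of at least 5. The median difference was -0.29. This group includes ALG5, which makes a donor for those steps but works on the cytosolic face. The 3 measured genes of glucose addition, ALG5, ALG6 and ALG8, all fell. ALG6, which adds the first glucose, had 6.47, 6.55 and 6.44 after glucosamine, against 7.26, 7.39 and 7.39 in control. The gap between the groups was several times the spread within either. ALG6 fell by 0.87 ± 0.06 (SE, adjusted p = 7.66e-05), a 1.82-fold difference and the largest of the 43. ALG5, which makes the dolichol-linked glucose donor on the cytosolic face, had 7.30, 7.26 and 7.31 after glucosamine and 7.67, 7.58 and 7.50 in control. It fell by 0.29 ± 0.06 (SE, adjusted p = 0.00768). ALG8, which adds the second glucose, fell by 0.34 (adjusted p = 0.00849), and ALG10, which adds the last, was not measured.

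The lumenal mannosyltransferases went less uniformly. ALG12 fell by 0.28 (adjusted p = 0.0102). ALG3 had 10.95, 10.95 and 11.06 after glucosamine and 10.96, 11.04 and 10.93 in control, and did not pass (interval of the difference -0.12 to 0.15). ALG9 had 4.65 to 4.73 after glucosamine and 4.61 to 4.78 in control, a signal with only 31.7% to 34% of all probe sets below it in these 6 arrays, so these arrays may not show a fall of ALG9.

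ALG12 shares its start region with CRELD2, an ER protein gene known to rise under ER stress. Of the 36 measured members with a promoter in RefSeq's GRCh38.p14 table (250 bases before to 50 after the start, both strands searched), ALG12 was the one that held the ER stress response element. That element is CCAAT and CCACG with 9 bases between, and 0.0916% of all 27305 genes in the table hold it. The 195 bases between the ALG12 and CRELD2 starts are shown with the element in capitals, at chr22:49918439-49918633 and on the minus strand.
ALG12 to CRELD2: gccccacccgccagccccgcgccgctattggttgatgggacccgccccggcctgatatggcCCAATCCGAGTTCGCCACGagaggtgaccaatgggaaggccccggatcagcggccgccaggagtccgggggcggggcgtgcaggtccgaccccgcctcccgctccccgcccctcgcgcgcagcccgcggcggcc
CRELD2 had 6.91, 6.77 and 6.66 after glucosamine and 7.08, 6.90 and 6.83 in control. It did not pass (-0.16, adjusted p = 0.237). Neither gene at this element was therefore called higher after glucosamine.

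The other motifs gave few matches. The core of the XBP1 and ATF6 site, TGACGTG, was found in DHDDS and MGAT1, beside 2.4% of all genes. The C/EBP-ATF response element, TGATGNAAN, was found in 0 of the 36, beside 4.45% of all genes. The E-box, CACGTG, was found in ALG3, DDOST, DHDDS, DOLK and GMPPA, beside 8.77% of all genes, and of these 5 DOLK alone passed the test with glucosamine. In DHDDS the TGACGTG matches and the E-boxes do not overlap.

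Of the 8 measured subunits of the oligosaccharyltransferase 4 rose, 1 fell and 3 did not pass. Thus 62.5% passed, beside 25.8% of all probe sets and 34.2% of those with a mean of at least 5. In 7 of the 8 (87.5%) the groups did not overlap, beside 40.9% of all probe sets. OSTC, a subunit of the STT3A form, which acts on chains still entering the ER, had 11.58, 11.52 and 11.61 after glucosamine, against 11.02, 11.04 and 11.12 in control. It rose by 0.51 ± 0.05 (SE, adjusted p = 0.000399), a 1.42-fold difference. STT3A, the catalytic subunit of that form, had 10.98, 11.04 and 10.95 after glucosamine and 10.60, 10.70 and 10.62 in control. The groups did not overlap, and STT3A rose by 0.35 ± 0.05 (SE, adjusted p = 0.00233).

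The catalytic subunit of the other form, STT3B, rose by 0.19 (adjusted p = 0.032), and RPN1, a shared subunit, by 0.26 (0.0349). Both calls were fragile. STT3B lost its call when control array 1 (0.0985), 2 (0.0732) or 3 (0.0775), glucosamine array 2 (0.0978) or 3 (0.0641), or the number 1 arrays of both groups (0.072) were left out, and when all probe sets of the table were tested (0.0538). RPN1 lost its call when control array 1 (0.0808), 2 (0.0874) or 3 (0.108) or the number 1 arrays of both groups (0.0538) were left out, and over the whole table (0.0699). DAD1, another shared subunit, had 12.01, 11.98 and 12.03 after glucosamine and 11.85, 11.84 and 11.89 in control, with no overlap, but did not pass (0.14, adjusted p = 0.0682) unless the fit had an intensity trend (0.00637). DDOST, also shared, differed by 0.07 (0.395).

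MAGT1 and TUSC3 are the alternative oxidoreductase subunits of the STT3B form. MAGT1 had 8.56, 8.73 and 8.56 after glucosamine and 8.80, 8.95 and 8.88 in control, and fell by 0.26 (adjusted p = 0.0226). The call on MAGT1 ended when control array 2 (0.0902) or 3 (0.07) or glucosamine array 3 (0.0854) was left out, and when its probe set was averaged with a dim second one (0.0613). TUSC3 had 5.34, 4.93 and 4.94 after glucosamine and 5.07, 4.79 and 4.76 in control, which overlap, and did not pass (0.19, adjusted p = 0.33). In each of the 3 replicates TUSC3 was higher after glucosamine, and it passed with a replicate block (0.0382). Its signal was dim, with a mean of 4.95 over all 8 arrays. Of all probe sets 36.8% to 44.3% were below TUSC3 after glucosamine and 33.7% to 40% in control. These arrays may therefore not show a change of TUSC3.

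**Figure D2:**
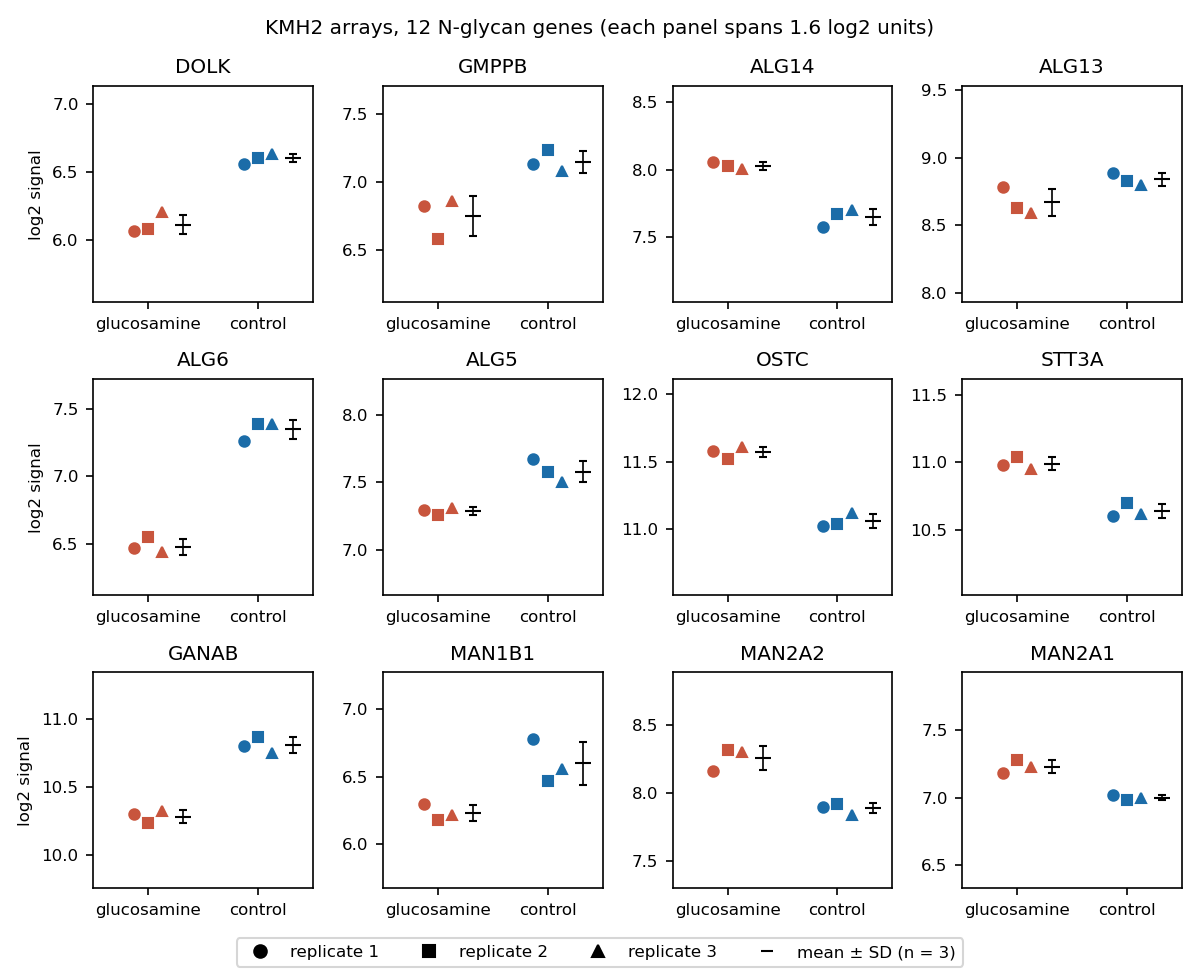
Log2 signal on each KMH2 array for 12 genes, glucosamine left and control right, with symbols for the replicate number and the mean ± SD (n = 3) beside the points. Each panel spans the same log2 range. The 12 are the 2 genes with the smallest p in each role group, picked from these same arrays. The groups therefore do not overlap in any of the 12 panels, beside 26 of all 43 genes. The gap is widest for ALG6.

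In ER trimming and folding control 3 of 6 genes fell, 0 rose and 3 did not pass. The passing share was 50%, beside 25.8% of all probe sets and 34.2% of those with a mean of at least 5. GANAB, the catalytic subunit of glucosidase II, had 10.30, 10.23 and 10.32 after glucosamine, against 10.80, 10.87 and 10.75 in control. It fell by 0.52 ± 0.06 (SE, adjusted p = 0.000433), a 1.44-fold difference. Its partner subunit PRKCSH had 11.36, 11.45 and 11.46 after glucosamine and 11.39, 11.39 and 11.30 in control, which overlap, and differed by 0.06 (interval -0.06 to 0.19). The 2 subunits of this enzyme thus went apart, a difference between genes that was not tested.

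MAN1B1, a mannosidase that marks misfolded glycoproteins for degradation, had 6.30, 6.18 and 6.22 after glucosamine and 6.78, 6.47 and 6.56 in control. It fell by 0.37 ± 0.08 (SE, adjusted p = 0.0133). UGGT1, which puts a glucose back on misfolded glycoproteins, fell by 0.20 (adjusted p = 0.046). UGGT1 stood at the threshold and was not called when control array 2 (0.135) or 3 (0.149) or any glucosamine array (0.0925, 0.0646 and 0.0903) was left out, with quantile normalization (0.0831) or over the whole table (0.0812). Its paralog UGGT2 had 6.45, 6.94 and 6.83 after glucosamine and 6.44, 6.55 and 6.64 in control and did not pass (0.20, adjusted p = 0.291), but passed when glucosamine array 1 (0.0113) or the number 1 arrays of both groups (0.0154) were left out. MOGS, glucosidase I, differed by -0.17 (0.133).

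Of 10 Golgi genes 3 rose, 1 fell and 6 did not pass. Thus 40% passed, beside 25.8% of all probe sets and 34.2% of those with a mean of at least 5. The 3 that rose, MAN2A2, MAN2A1 and MAN1A1, are mannosidases, and the remaining mannosidase, MAN1A2, did not pass. MAN2A2, an alpha-mannosidase II, had 8.16, 8.32 and 8.30 after glucosamine, against 7.90, 7.92 and 7.84 in control. It rose by 0.38 ± 0.06 (SE, adjusted p = 0.00286). MAN2A1, the other alpha-mannosidase II, had 7.18, 7.28 and 7.23 after glucosamine and 7.02, 6.98 and 7.00 in control. It rose by 0.23 ± 0.05 (SE, adjusted p = 0.0133), a call that ended when control array 2 was left out (0.0571).

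The alpha-mannosidases I act earlier. MAN1A1 rose by 0.34 (adjusted p = 0.0177), and was not called when control array 1 (0.0585) or 3 (0.0609) or glucosamine array 2 (0.0611) or 3 (0.067) was left out. MAN1A2 differed by 0.25 (0.134). MAN1A2 passed with a replicate block (0.0438) and when glucosamine array 1 (0.00727) or the number 1 arrays of both groups (0.0126) were left out.

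Of the GlcNAc transferases that begin or extend branches, MGAT2, which starts the second branch, fell by 0.40 (adjusted p = 0.0197). Leaving out control array 1 (0.0672) or 2 (0.0777), glucosamine array 3 (0.0631) or the number 1 arrays of both groups (0.0787) ended the call on MGAT2. MGAT1, which starts the first, differed by -0.10 (interval -0.28 to 0.09), MGAT3, which adds the bisecting GlcNAc, by 0.09 (-0.07 to 0.26), and MGAT5, which adds the beta-1,6 branch, by 0.01 (-0.13 to 0.15). MGAT1 passed when glucosamine array 1 was left out (-0.19, adjusted p = 0.0492).

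MGAT4A, which adds the beta-1,4 branch, depended most on the pairing. It had 5.76, 6.62 and 6.63 after glucosamine and 5.48, 6.15 and 6.22 in control, so replicate 1 was low in both groups and each treated array was above the control array of its number. The unpaired fit did not call MGAT4A (0.38, adjusted p = 0.358), whereas the fit with a replicate block did (0.0024). MGAT4A was also called when glucosamine array 1 (0.67, adjusted p = 0.0401) or the number 1 arrays of both groups (0.44, 0.00147) were left out. Its paralog MGAT4B differed by -0.18 (adjusted p = 0.198).

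MGAT4B starts 142 bases from SQSTM1, the autophagy receptor gene, on the opposite strand. SQSTM1 had 11.04, 10.98 and 11.03 after glucosamine and 10.47, 10.30 and 10.25 in control. It rose by 0.67 (adjusted p = 0.000308), while MGAT4B did not pass. The stretch is shown to set it beside that of DOLK and NUP188, at chr5:179806867-179807008 on the minus strand, and it held none of the 4 motifs.
MGAT4B to SQSTM1: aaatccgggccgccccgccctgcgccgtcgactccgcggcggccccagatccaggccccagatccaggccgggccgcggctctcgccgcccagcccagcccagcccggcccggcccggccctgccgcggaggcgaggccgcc
Of the 36 measured members with a promoter in the table, 7 had a measured partner within 1000 bases on the opposite strand. The remaining measured members could not be searched. Besides these 3 pairs, MGAT2 fell while its partner RPL36AL, a ribosomal protein gene, differed by 0.10 (adjusted p = 0.344). DPM1 did not pass while MOCS3 fell by 0.37 (0.0162). ALG2 with SEC61B and PRKCSH with ODAD3 did not pass on either side.

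A further 24 genes of the same pathway were measured, and 7 rose, 2 fell and 15 did not pass. Thus 37.5% of them passed, beside 25.8% of all probe sets and 34.2% of those with a mean of at least 5. EDEM1, a lectin that sends misfolded glycoproteins to degradation, had 8.61, 8.54 and 8.60 after glucosamine, against 7.81, 7.88 and 7.62 in control. It rose by 0.82 (adjusted p = 0.000196), and its relatives EDEM2 and EDEM3 rose by 0.33 (0.00479) and 0.23 (0.0431). SSR3, a subunit of the translocon-associated complex, rose by 0.41 (0.000917). The lysosomal mannosidase MAN2B1 fell by 0.32 (0.00309).

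Ramos was then compared with KMH2 control, in a fit whose spread comes from all 8 arrays. It has the control arrays in common with the first, so the 2 sets of differences are not independent. Of the 43 genes 11 were higher in Ramos, 15 were lower and 17 did not pass. In all, 60.5% of them passed, 25.6% higher and 34.9% lower, beside 43.8% of all probe sets, 22.7% higher and 21.2% lower, and beside 54% of those with a mean of at least 5. The 2 groups did not overlap in 32 of the 43 (74.4%), beside 64.1% of all probe sets. The Ramos arrays differed from each other by 0.5 or more in 8 of the 43 genes, and the median size of that difference was 0.23, beside 0.16 for all probe sets.

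**Figure D3:**
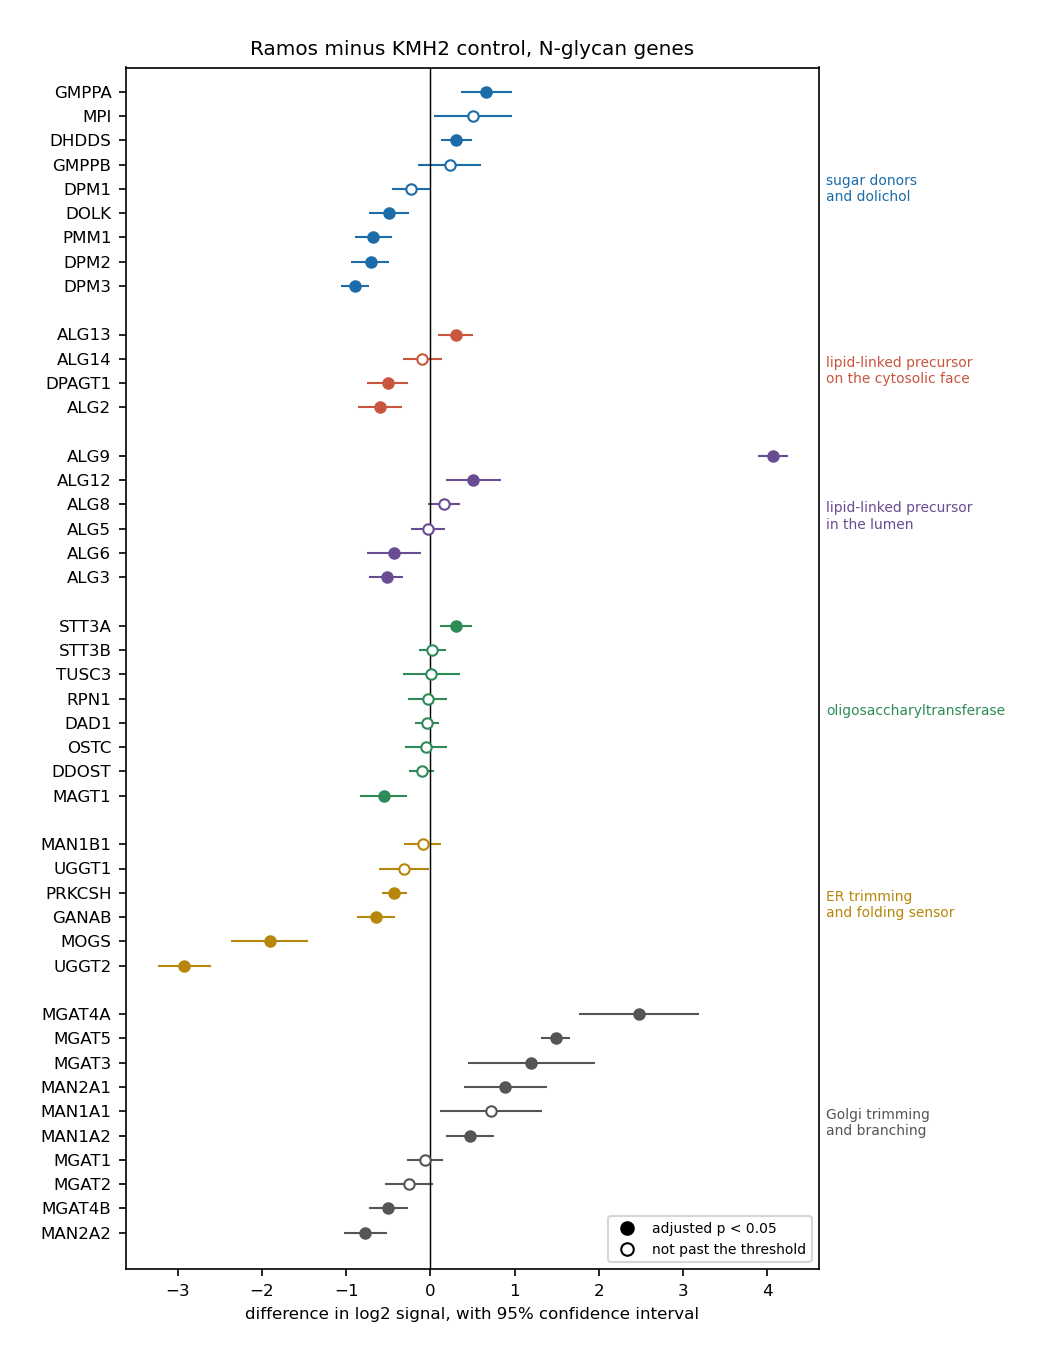
Difference in log2 signal between Ramos (2 arrays) and KMH2 control (3 arrays) for the 43 measured genes, in 6 groups by role, with the 95% confidence interval from the fit of all 8 arrays. Filled points passed the test. ALG9 lies at 4.07 and UGGT2 at -2.93, while most subunits of the oligosaccharyltransferase lie near 0.

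Of the 43 genes the one with the largest difference was ALG9, the lumenal transferase that adds mannose before and after ALG12. ALG9 had 8.80 and 8.74 in Ramos, against 4.61, 4.73 and 4.78 in KMH2 control. The difference was 4.07 ± 0.07 (SE, adjusted p = 2.64e-09), a 16.7-fold difference in signal. In the Ramos arrays 83.8% and 84.2% of probe sets were below ALG9, beside 31.7% to 34% in KMH2 control. The next lumenal enzymes were far closer between the lines. ALG3, which adds the mannose before ALG9, had 10.58 and 10.32 in Ramos and 10.96, 11.04 and 10.93 in KMH2 control, and was lower in Ramos (-0.52, adjusted p = 0.00153).

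ALG12 was higher in Ramos by 0.51 (adjusted p = 0.0184) and ALG6 lower (-0.43, adjusted p = 0.0349), but the Ramos arrays disagreed on both. ALG12 had 7.63 and 8.16 in Ramos, and its difference was 0.78 without Ramos replicate 1 and 0.24 without replicate 2, and was not called without control replicate 1 (0.0575). ALG6 had 7.18 and 6.66 in Ramos. Its difference was -0.69 without Ramos replicate 1, -0.17 (adjusted p = 0.146) without replicate 2, and it was not called without control replicate 1 (0.0535), 2 (0.095) or 3 (0.0946).

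The genes next to ALG9 on chromosome 11 did not show a difference of that size. PPP2R1B, its nearest measured neighbour on one side, had 8.96 and 8.48 in Ramos and 8.80, 8.67 and 8.66 in KMH2 control (difference 0.01, adjusted p = 0.946). FDXACB1, on the other side, had 7.21 and 5.92 in Ramos and 6.42, 6.25 and 6.31 in KMH2 control (0.23, adjusted p = 0.573). None of the 6 nearest measured neighbours of ALG9 passed between the lines. CFAP68 (0.48, adjusted p = 0.0574) and CRYAB (0.17, 0.0779) nevertheless lay above every control array in both Ramos arrays. With glucosamine FDXACB1 (-0.83, adjusted p = 0.000215) and CFAP68 (-0.84, 0.00144) fell, whereas ALG9 did not pass. Because ALG9 was dim on all KMH2 arrays, they may not show a fall of it.

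**Figure D4:**
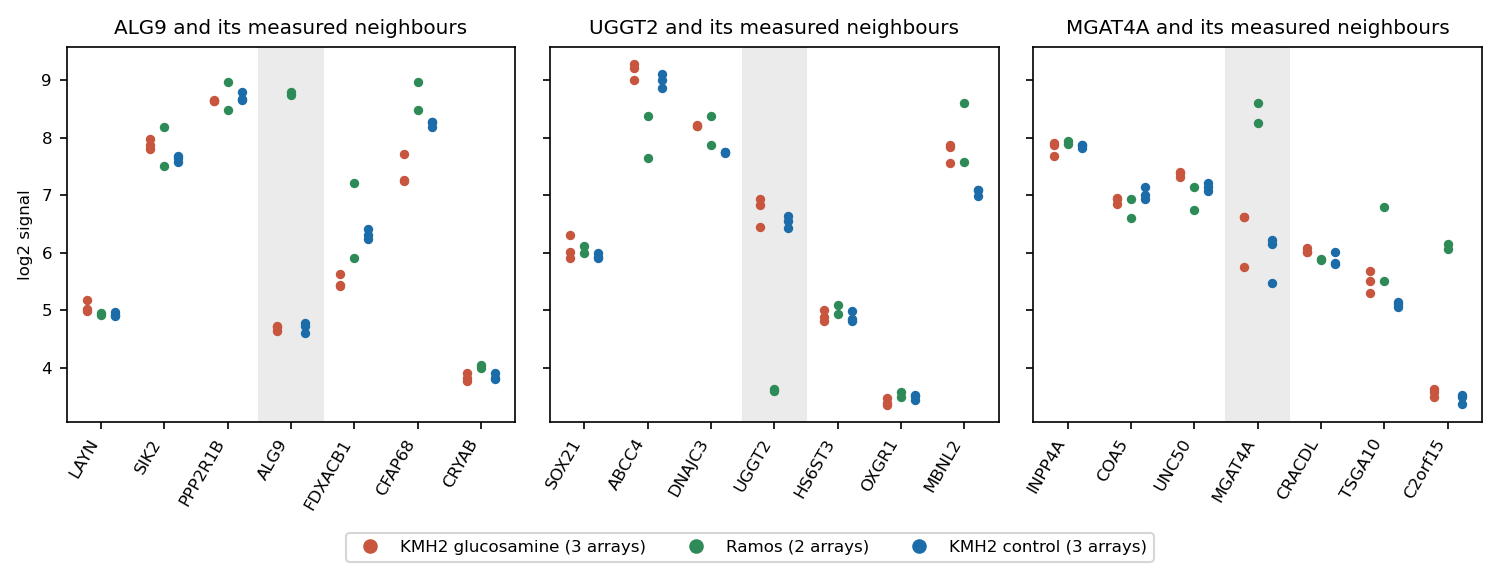
Log2 signal on each array for the 3 members that differ most between the lines (shaded) and the 3 nearest measured protein-coding genes on each side, in chromosome order but not to scale, with KMH2 glucosamine left, Ramos in the middle and KMH2 control right. ALG9 has 8.80 and 8.74 in Ramos and under 4.8 on every KMH2 array, while PPP2R1B beside it has 8.48 to 8.96 on all 8.

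Among ER trimming genes 4 of 6 were lower in Ramos and 0 higher. Thus 66.7% passed, beside 43.8% of all probe sets and 54% of those with a mean of at least 5. UGGT2 had 3.63 and 3.60 in Ramos, against 6.44, 6.55 and 6.64 in KMH2 control. The difference was -2.93 ± 0.14 (SE, adjusted p = 7.06e-07), a 7.60-fold lower signal, and with 13.2% and 13.8% of probe sets below it in Ramos UGGT2 was among the dimmest signals there. Its paralog UGGT1 had 9.57 and 9.11 in Ramos and 9.57, 9.67 and 9.72 in KMH2 control, and did not pass (-0.31, adjusted p = 0.0847). UGGT1 passed without Ramos replicate 1 (-0.54, 0.000935). The nearest measured neighbours of UGGT2, DNAJC3 (0.38, adjusted p = 0.042) and HS6ST3 (0.12, 0.317), were not lower in Ramos, while ABCC4, the second gene to one side, was (-0.98, 0.0034).

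MOGS had 7.71 and 6.93 in Ramos, against 9.34, 9.23 and 9.12 in KMH2 control. Both Ramos arrays were far below, and the difference was -1.91 ± 0.20 (SE, adjusted p = 8.62e-05). Both subunits of glucosidase II were lower in Ramos as well, GANAB (-0.64, adjusted p = 0.000893) and PRKCSH (-0.43, 0.000877). MAN1B1 did not pass (-0.09, 0.49).

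Of the 10 Golgi genes 5 were higher in Ramos, 2 lower and 3 did not pass. Thus 70% passed, beside 43.8% of all probe sets and 54% of those with a mean of at least 5. Those higher were the branching enzymes MGAT3, MGAT4A and MGAT5 and the mannosidases MAN1A2 and MAN2A1. MGAT4A had 8.26 and 8.60 in Ramos, against 5.48, 6.15 and 6.22 in KMH2 control, a difference of 2.48 ± 0.31 (SE, adjusted p = 0.000258). MGAT5 had 8.75 and 8.86 in Ramos and 7.39, 7.27 and 7.30 in KMH2 control. It was higher by 1.49 ± 0.08 (SE, adjusted p = 1.11e-06), a 2.80-fold difference. MGAT3 had 7.79 and 6.40 in Ramos and 5.83, 5.97 and 5.88 in KMH2 control, so its size rests on the array chosen. Its difference was 1.20 (adjusted p = 0.0176), 0.51 without Ramos replicate 1 and 1.90 without replicate 2, and it was not called without control replicate 1 (0.051) or 3 (0.0504).

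Some paralogs among the Golgi enzymes had opposite signs. MGAT4B, unlike MGAT4A, was lower in Ramos (-0.50, adjusted p = 0.00441). MAN2A2 was lower (-0.78, 0.000563), while MAN2A1 was higher (0.89, 0.0094), with 7.44 and 8.34 in Ramos and a difference of 1.34 without Ramos replicate 1 and 0.44 without replicate 2. MAN1A2 was higher (0.47, 0.0146), a call lost without Ramos replicate 2 (0.0577). MAN1A1 had 8.51 and 9.60 in Ramos and did not pass (0.72, 0.0586), but passed without Ramos replicate 1 (1.26, 2.93e-05). MGAT1, which all branching needs, had 6.50 and 6.51 in Ramos and 6.63, 6.54 and 6.53 in KMH2 control, and did not pass (-0.06, 0.629). MGAT2 did not pass either (-0.25, 0.14) but did without control replicate 3 (-0.37, 0.0318). Of the neighbours of MGAT4A on chromosome 2, UNC50 (-0.20, adjusted p = 0.184) and CRACDL (-0.00, 0.967) did not pass, while TSGA10 (1.04, 0.0262) and C2orf15 (2.65, 3.56e-08), the second and the third gene to one side, were higher.

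Of the 8 oligosaccharyltransferase subunits 1 was higher in Ramos, 1 lower and 6 did not pass. Thus 25% passed, beside 43.8% of all probe sets and 54% of those with a mean of at least 5. The median size of the subunits' differences was 0.04, beside 0.24 for all probe sets. MAGT1 had 8.52 and 8.13 in Ramos, against 8.80, 8.95 and 8.88 in KMH2 control, and was lower (-0.55, adjusted p = 0.00565). Its difference was -0.36 without Ramos replicate 2 and -0.27 when averaged with its dim second probe set. STT3A had 10.82 and 11.05 in Ramos and 10.60, 10.70 and 10.62 in KMH2 control, and was higher by 0.30 (0.0196). STT3A was not called when Ramos array 2 (0.18, 0.0896) or control array 1 (0.0611) or 3 (0.0598) was left out. OSTC had 10.82 and 11.20 in Ramos and 11.02, 11.04 and 11.12 in KMH2 control (interval of the difference -0.30 to 0.20). OSTC passed without Ramos replicate 2 (-0.24, 0.0304).

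In donor supply 2 of 9 genes were higher in Ramos, 4 lower and 3 did not pass. Thus 66.7% passed, beside 43.8% of all probe sets and 54% of those with a mean of at least 5. DPM3 had 8.39 and 8.27 in Ramos, against 9.18, 9.26 and 9.23 in KMH2 control, a difference of -0.89 ± 0.07 (SE, adjusted p = 1.6e-05). DPM2 had 8.32 and 8.11 in Ramos and 8.88, 8.96 and 8.94 in KMH2 control (-0.71, adjusted p = 0.000477). The catalytic DPM1 did not pass (-0.23, 0.0811), though it did without Ramos replicate 1 (-0.35, 0.015). PMM1 was lower (-0.68, 0.000536), as was DOLK (-0.49, 0.00513). The difference of DOLK was -0.32 without Ramos replicate 2. GMPPA (0.66, 0.00373) and DHDDS (0.31, 0.0121) were higher. MPI had 9.44 and 8.62 in Ramos and GMPPB 7.66 and 7.08, and both passed once Ramos replicate 2 was left out (0.92, adjusted p = 6.07e-05, and 0.52, 0.00737).

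On the cytosolic face ALG2 had 7.27 and 7.54 in Ramos, against 8.10, 7.99 and 7.93 in KMH2 control (-0.60, adjusted p = 0.00282). DPAGT1 had 9.69 and 9.60 in Ramos and 10.05, 10.24 and 10.17 in KMH2 control (-0.50, 0.00458). ALG13 was higher (0.30, 0.027). ALG13 was not called when Ramos array 1 (0.19, adjusted p = 0.123) or control array 2 (0.0733) or 3 (0.0816) was left out, or over the mean of its probe sets (0.0853). ALG14 did not pass (-0.10, 0.487) but did without Ramos replicate 2 (-0.27, 0.0191). Of the 24 further pathway genes 5 were higher in Ramos, 8 lower and 11 did not pass. Thus 54.2% of them passed, beside 43.8% of all probe sets and 54% of those with a mean of at least 5. EDEM1 had 9.09 and 9.17 in Ramos, against 7.81, 7.88 and 7.62 in KMH2 control, and was higher by 1.36 (4.3e-06).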

How the data were processed

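The authors deposited 1 table of log2 signals for 33297 probe sets from 8 human whole-transcript arrays, the type per the labels' protocols. That its values are log2 was read from their range (1.935 to 13.213). Summarization, background correction and normalization are not given in the sources used here. How much background they hold is unknown, and folds of dim genes are understated by it. Array medians lay between 5.62 and 5.68, and the number of arrays limits the precision.

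Names come from GEO's annotation of the platform, dated 2016. It lists 21236, of which 19181 have 1 symbol and were tested, and 2055 have several. The model was fitted with limma (version 3.58.1, under R version 4.3.3), with two-sided moderated tests, Benjamini-Hochberg values over all 19181 probe sets and a threshold of 0.05, and was tested on simulated data. All adjusted p-values, standard errors and intervals are limma's. Glucosamine was tested over the 6 KMH2 arrays, and Ramos in 3 groups over all 8.

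The members and lists were chosen with earlier results of these data known. All 20 members called with glucosamine are named. In each role group the 2 with the smallest p (glucosamine) or the largest called difference (Ramos) have the value of every array, as do those with a difference of at least 0.5 after glucosamine, and those at least 1 apart between the lines are named. CRELD2, NUP188, SQSTM1, the other divergent partners, the chromosomal neighbours and further arrays' values were added after values were seen.

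The series' design text has each KMH2 replica taken both ahead of and following treatment, and the replicate block pairs arrays by number. Deviations from the group means correlated at 0.46, 0.23 and 0.23 across probe sets within numbers 1, 2 and 3. Unlike numbers 2 and 3 correlated about as well as like ones. Glucosamine 2 with control 3 gave 0.18, and glucosamine 3 with control 2 gave 0.25. Number 1 with unlike numbers gave -0.37 to -0.27. With each group centred on its own mean, a positive value within number 1 forces these down, so they are no separate evidence. The 0.46 within number 1 sets replicate 1 apart, but the values do not show how arrays 2 and 3 pair. Within numbers, Ramos and KMH2 control correlated at 0.02 and 0.03. The KMH2 replicates are biological per the design text, and for Ramos nothing says so. The Ramos p-values rest on the spread within the KMH2 groups and within Ramos together, and the Ramos part may be technical. The design text also puts 1 of the Ramos arrays after glucosamine. Whether the gap between the Ramos arrays is technical, biological or due to treatment was not tested. Alternatives were a replicate block, other sets of arrays for the spread, quantile normalization, leaving out dim probe sets (mean under 5), testing the whole table, an intensity trend, averaging probe sets and leaving out arrays.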

Additional observations from a re-analysis of the deposited data

How the results depend on the processing

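No called member changed direction under any alternative run. Of the 20 members called with glucosamine 10 kept their call in all 14 alternatives, and of the 26 called in Ramos 20 did so in all 12. When all 8 arrays shared the spread, the glucosamine calls were 4 members higher and 6 lower in place of 8 and 12, and 998 probe sets higher and 1179 lower in place of 2285 and 2671. Without 1 KMH2 array at a time, 5 to 11 members were higher and 8 to 13 lower, with 5 higher without any 1 control array. Of all probe sets, 1571 to 2589 were higher and 2029 to 2715 lower in these runs. The replicate block gave 11 members higher and 13 lower with glucosamine, and 2711 of all probe sets higher and 3037 lower. Apart from ALG13, TUSC3, MAN1A2 and MGAT4A, which gained a call, it changed no other call among the members. For Ramos the replicate numbers share only a number. There the block gave 12 higher and 14 lower, with ALG6 not called (adjusted p = 0.076) and MAN1A1 called (0.0316). Of all probe sets, 3905 were then higher and 3836 lower in place of 4347 and 4061. With only the 5 Ramos and KMH2 control arrays ALG12 (0.0577), ALG6 (0.0903), STT3A (0.0546) and MGAT3 (0.0608) lost their calls. The causes were not tested. The pair of Ramos arrays and dim signals, such as those of ALG9 in KMH2 and UGGT2 in Ramos, set the limits.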
